A study of Mus musculus with 18 samples.

Results

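The retinol dehydrogenase family was followed here through 6 genes, *Rdh5*, *Rdh10*, *Rdh11*, *Rdh12*, *Rdh13* and *Rdh14*, among the 45706 genes counted in 18 injured mouse kidneys. These genes were picked by name, after knock-out effects of the same kidneys had been seen, so their knock-out effects are given as a description of these kidneys, and the p-values of the fit over all genes only place them among those genes. The gene that stood out was *Rdh11*. It lay above every control in all 5 *Cxcl12* KO kidneys and below every control in all 5 *Myc* KO kidneys, by about the same size on the log2 scale (0.34 and -0.35). *Rdh10* lay above every control in the *Myc* KO kidneys, and *Rdh12* above every control in the *Cxcl12* KO kidneys. *Rdh14* lay below every control in the *Cxcl12* KO kidneys, with a log2 fold change of only -0.11. *Rdh5* and *Rdh13* overlapped their controls in both cohorts. Of all genes tested, 9.68% were separated in this way in the *Cxcl12* cohort and 5.97% in the *Myc* cohort, in either direction.

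Retinol, or vitamin A, is oxidized to retinal and then to retinoic acid, which binds nuclear receptors and switches genes on. The first step is reversible, and short-chain dehydrogenases of the retinol dehydrogenase family run it in either direction. RDH10 is the main oxidase of all-trans retinol in the embryo and RDH5 oxidizes 11-cis retinol in the pigment epithelium of the eye. RDH11, RDH12, RDH13 and RDH14 are closely related enzymes that prefer NADP cofactors and mostly reduce retinal back to retinol. The kidney takes up filtered retinol with its binding protein in the proximal tubule and holds retinal-oxidizing aldehyde dehydrogenases.

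Whole kidneys came from 4 groups of male C57BL/6 mice, operated on at 10–12 weeks of age. *Cxcl12* KO mice (n = 5) carried floxed *Cxcl12* together with Pax8rtTA and TetOCre, and *Cxcl12* control mice (n = 3) carried floxed *Cxcl12* and Pax8rtTA but no TetOCre. *Myc* KO (n = 5) and *Myc* control mice (n = 5) differed in the same way on floxed *Myc*. The Pax8 promoter restricts the deletion to tubule cells, so that all other cells of the kidney still hold the gene. All mice, controls included, drank doxycycline for 14 days, had 1 week without it, and underwent bilateral ischemia for 22.5 min with 12 h of reperfusion, and no uninjured kidney was part of the series. The labels number the replicates but do not state that they are separate animals or litters, and the methods describe littermates.

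The kidneys had from 12918220 to 29749500 reads on genes. The share of unmapped reads was under 5% in 6 of them (2 of *Cxcl12* KO, 0 of *Cxcl12* control and 2 of each *Myc* group). No label names a batch for them. These kidneys also had more reads in all, 32532582 to 43000680 against 18724190 to 26415146 in the others. Mapping group and sequencing depth can thus not be told apart, and values within these mapping groups are given beside the results they touch. The kidney markers fitted the labelled tissue, with 3300 to 5180 summed CPM (read counts scaled to a common library size) over 8 proximal tubule genes in every kidney. That sum was lower in *Cxcl12* KO than in their control kidneys, without overlap (3744 to 4222 against 4354 to 5180 CPM), whereas *Myc* KO and control kidneys overlapped (3300 to 5133 and 3544 to 4258 CPM). Of the 8 genes, *Lrp2* alone lay below every *Cxcl12* control, and the groups overlapped for the others. Their log2 fold changes for *Cxcl12* ran from -0.81 (*Slc5a12*) to 0.11 (*Slc7a13*). The sum of 7 injured tubule markers was higher in *Cxcl12* KO than in their controls, also without overlap (14148 to 22117 against 11333 to 12830 CPM), and overlapped in the *Myc* cohort (16672 to 26051 and 14370 to 22931 CPM). Most of that sum was *Spp1*, with a mean of 13274 CPM in *Cxcl12* KO and 8895 CPM in their control kidneys. Taken singly, *Lcn2* lay above every *Cxcl12* control, and the groups overlapped for the other injured tubule markers, *Spp1* included. Summed muscle markers (*Acta1*, *Ckm*, *Myh4*) were 7.02 to 21.0 CPM in *Cxcl12* control and at most 3.84 CPM in *Cxcl12* KO kidneys, and their part in the results below was not tested. In the knock-outs, *Cxcl12* had 26.3 to 40.9 CPM in its KO and 44.9 to 60.5 CPM in its control kidneys (log2 fold change -0.73, adjusted p = 0.094 in edgeR's quasi-likelihood test). *Myc* had 26.6 to 37.0 CPM in its KO and 79.7 to 117 CPM in its control kidneys (log2 fold change -1.61, adjusted p = 8.8e-05 in the same test), so that the order matched the labels in both cohorts. Because whole kidneys were sequenced, fewer cells of a type and less RNA per cell cannot be told apart.

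On the mouse genome GRCm38, 3 of the 6 genes lay on chromosome 12. *Rdh11* (ENSMUSG00000066441, chr12:79174337-79192293, minus strand) and *Rdh12* (ENSMUSG00000021123, chr12:79208914-79222665, plus strand) were neighbours that start 16620 bases apart and point away from each other. *Rdh14* (ENSMUSG00000020621, chr12:10390772-10395562, plus strand) lay far from them. The other 3 were *Rdh10* (ENSMUSG00000025921, chr1:16105774-16133734, plus strand), *Rdh13* (ENSMUSG00000008435, chr7:4424770-4445649, minus strand) and *Rdh5* (ENSMUSG00000025350, chr10:128913593-128922888, minus strand).

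The promoter windows of the neighbouring pair *Rdh11* and *Rdh12* are shown because the *Rdh11* log2 fold change had opposite signs in the cohorts. They are also shown because 1 cohort tests a tubule deletion of *Myc*, whose product binds the E-box CACGTG. The windows were thus chosen with the *Rdh11* effect known, and whether MYC acts on *Rdh11* was not tested. The windows came from RefSeq on GRCm38.p6 and run from 250 bases before to 50 bases after each start, read 5′ to 3′ on the strand of the gene, and capitals mark the E-box. *Rdh11* has 2 windows for 2 annotated starts, chr12:79191806-79192105 and chr12:79190912-79191211 on the minus strand, and the *Rdh12* window is chr12:79208663-79208962 on the plus strand.
Rdh11, first start: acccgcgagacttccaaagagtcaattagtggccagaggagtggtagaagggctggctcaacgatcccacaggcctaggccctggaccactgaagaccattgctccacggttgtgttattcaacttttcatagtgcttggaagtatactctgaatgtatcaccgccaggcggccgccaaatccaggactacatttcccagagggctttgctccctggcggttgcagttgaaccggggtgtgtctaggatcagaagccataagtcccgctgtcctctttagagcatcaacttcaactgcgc
Rdh11, second start: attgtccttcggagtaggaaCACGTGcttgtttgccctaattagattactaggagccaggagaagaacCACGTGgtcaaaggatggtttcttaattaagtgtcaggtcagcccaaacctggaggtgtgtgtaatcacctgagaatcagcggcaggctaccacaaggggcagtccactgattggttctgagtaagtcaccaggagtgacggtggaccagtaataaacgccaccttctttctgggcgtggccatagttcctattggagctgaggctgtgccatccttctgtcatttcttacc
Rdh12: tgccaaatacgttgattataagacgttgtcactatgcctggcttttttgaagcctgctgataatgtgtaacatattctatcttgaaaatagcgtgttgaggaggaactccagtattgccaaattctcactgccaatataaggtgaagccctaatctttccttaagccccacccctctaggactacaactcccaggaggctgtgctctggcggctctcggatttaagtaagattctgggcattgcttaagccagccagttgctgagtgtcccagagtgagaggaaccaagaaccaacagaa
The second *Rdh11* window held the E-box at bases 21 and 69, counted from its 5′ end (chr12:79191186-79191191 and chr12:79191138-79191143), and the first *Rdh11* window and the *Rdh12* window held none. The E-box is a palindrome, so that both strands read alike. Of 32851 RefSeq windows of this length, 7.15% held at least 1 E-box and 0.594% held 2 or more. *Rdh10* and *Rdh13* were not examined for motifs. The windows of *Rdh5* and *Rdh14* held no E-box, and the 5 windows of the other 4 genes held no direct repeat of AGGTCA with 5 bases between the copies on either strand, a binding motif of retinoic acid receptors that was found in 3 of all windows. A match describes letters in a window and says nothing of whether a factor was bound there.

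*Rdh10* had the highest level per exon length of the 6 genes. Its mean over all 18 kidneys was 37.7 ± 6.56 FPKM (the CPM divided by exon length in kilobases, with SD), followed by *Rdh14* with 17.2 ± 1.99, *Rdh11* with 14.4 ± 2.13, *Rdh13* with 4.64 ± 0.475, *Rdh12* with 1.63 ± 0.993 and *Rdh5* with 1.61 ± 0.269 FPKM. Among 15854 genes with a level, the percentile was 92.4 for *Rdh10*, 81.3 for *Rdh14*, 77.8 for *Rdh11*, 51.1 for *Rdh13*, 32.0 for *Rdh12* and 31.8 for *Rdh5*.

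**Figure D1:**
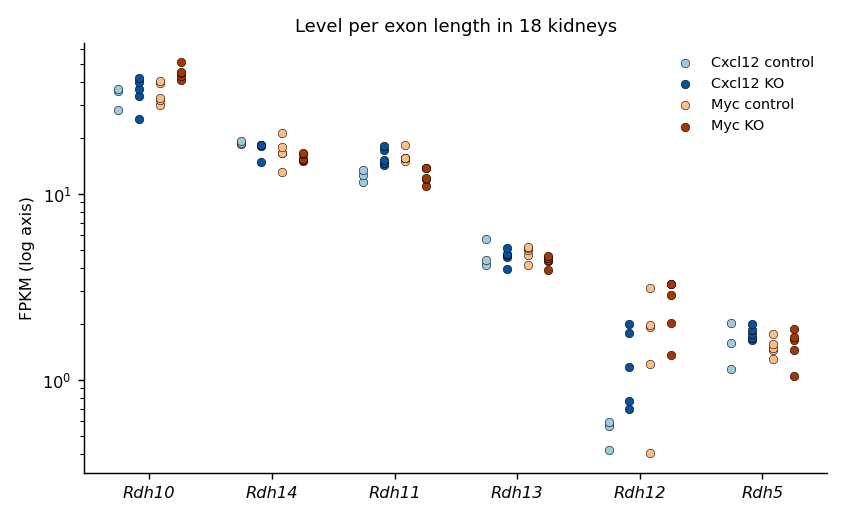
Level of each retinol dehydrogenase gene per exon length (FPKM, log axis) in each of the 18 kidneys, coloured by group, with genes ordered by their mean. *Rdh10* lies between 25.4 and 51.1 FPKM, above *Rdh14* in all 18 kidneys, while *Rdh12* spreads from 0.403 to 3.27 FPKM.

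The order held in most kidneys. *Rdh10* was above *Rdh14* in 18 of 18 kidneys, *Rdh14* above *Rdh11* in 16 of 18, *Rdh11* above *Rdh13* in 18 of 18 and *Rdh13* above *Rdh12* in 18 of 18. *Rdh12* was above *Rdh5* in 9 of 18, so these neighbours had no fixed order. *Rdh12* was also the most variable gene, with a coefficient of variation of 60.9% against 10.2% to 17.4% for the other 5 and a ratio of 8.11 between its highest and lowest kidney. The place of *Rdh5* and *Rdh13* depends on the length that is used. With the longest transcript in place of all exons, *Rdh5* had a mean of 3.40 FPKM and *Rdh13* of 9.93 FPKM. *Rdh5* also shares 720 exon bases (25.6% of its exons) on the same strand with *Bloc1s1*, and reads there could not be assigned to either gene. The coding sequences of *Rdh11* and *Rdh12* were 68.9% identical, the closest pair of the 6, but shared no run longer than 14 bases.

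None of the 6 genes passed edgeR's quasi-likelihood test in either cohort at an adjusted p of 0.05. Of 15154 genes tested in the *Cxcl12* cohort 0 passed (0%), and 1976 had an unadjusted p under 0.05, *Rdh11* and *Rdh12* among them. For *Myc* 246 of 14936 genes passed (1.65%), and 3268 had an unadjusted p under 0.05, *Rdh10* and *Rdh11* among them. DESeq2 called 1 of the 6 genes in the *Cxcl12* cohort (*Rdh12*) and 2 in the *Myc* cohort (*Rdh10* and *Rdh11*), against 2.34% and 7.63% of all genes. limma-voom called none of the 6 in either cohort. KO and control kidneys did not overlap for 3 of the 6 genes in the *Cxcl12* cohort, against 9.68% of all genes tested. *Rdh11* and *Rdh12* were higher in KO there, as were 4.96% of all genes, and *Rdh14* was lower, as were 4.72%. For *Myc* the groups did not overlap for 2 of the 6, against 5.97% of all genes. *Rdh10* was higher in KO, as were 2.05% of all genes, and *Rdh11* was lower, as were 3.92%. For *Cxcl12* the median log2 fold change of the 6 genes was 0.12, beside 0.00083 for all genes, and for *Myc* it was -0.045, beside -0.00083 for all genes.

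**Figure D2:**
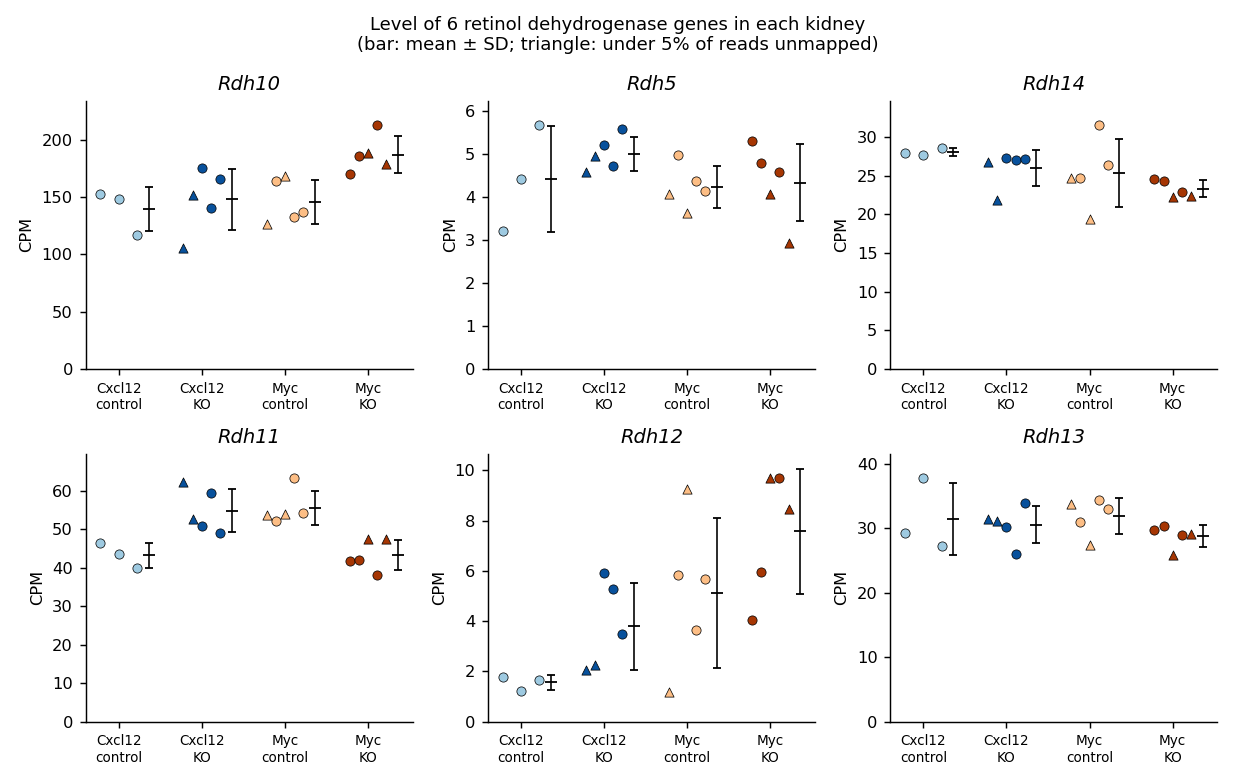
Normalized level (CPM, linear axis from 0) of each gene in each kidney by group, with the mean ± SD beside the points and triangles for the kidneys with under 5% of reads unmapped. For *Rdh11* the *Cxcl12* KO points lie above the *Cxcl12* control points (49.2 to 62.3 against 39.9 to 46.4 CPM) and the *Myc* KO points below the *Myc* control points (38.2 to 47.5 against 52.2 to 63.4 CPM).

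*Rdh10* encodes the oxidase that makes retinal from all-trans retinol. In the *Myc* KO kidneys it had 169.8, 186.1, 188.0, 212.6 and 178.5 CPM. In the *Myc* control kidneys it had 126.0, 164.1, 168.0, 132.7 and 136.9 CPM. All 5 KO kidneys lay above all 5 control kidneys, but the gap between the lowest KO and the highest control kidney was small. The *Rdh10* log2 fold change was 0.36 (standard error 0.099), a ratio of 1.29, with an adjusted p of 0.083 in edgeR's quasi-likelihood test, and DESeq2 gave an adjusted p of 0.013. Without *Myc* control replicate 3, the highest control, *Rdh10* passed edgeR's test (log2 fold change 0.42, adjusted p = 0.037). It passed in only 1 of the 10 fits that each left out 1 kidney, with edgeR's adjusted p up to 0.194. In the fit without that replicate 877 genes passed in all, against 246 with every kidney. Within the mapping groups the log2 fold change was 0.40 in the 6 *Myc* kidneys with at least 5% unmapped reads and 0.33 in the other 4.

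In the *Cxcl12* cohort, *Rdh10* had 105.5, 152.1, 175.0, 140.8 and 165.6 CPM in the KO and 153.0, 148.5 and 117.2 CPM in the control kidneys. The groups overlapped, and the spread within each was wider than the difference. The *Rdh10* log2 fold change was 0.078, with an adjusted p of 0.87 in edgeR's quasi-likelihood test and a 95% interval from -0.26 to 0.42, which contains the value of the *Myc* cohort. The difference of the *Rdh10* effects between the cohorts was 0.28 (standard error 0.19, adjusted p = 0.63 in the same test over all 18 kidneys), so a difference between the cohorts was not shown.

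*Rdh5*, the 11-cis retinol dehydrogenase, was near the low end of the counts, with 58 to 131 reads per kidney. It had 4.58 to 5.58 CPM in *Cxcl12* KO and 3.21 to 5.68 CPM in *Cxcl12* control kidneys, and 2.93 to 5.30 CPM in *Myc* KO and 3.62 to 4.98 CPM in *Myc* control kidneys. The *Rdh5* groups overlapped in both cohorts. The log2 fold change of *Rdh5* was 0.17 (95% interval -0.26 to 0.60) for *Cxcl12* and 0.027 (95% interval -0.34 to 0.39) for *Myc*, with adjusted p of 0.74 and 0.94 in edgeR's quasi-likelihood test.

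*Rdh11* encodes a retinal reductase of the endoplasmic reticulum that is found in many tissues. In the *Cxcl12* KO kidneys it had 62.3, 52.7, 50.9, 59.5 and 49.2 CPM. In the *Cxcl12* control kidneys it had 46.4, 43.5 and 39.9 CPM. Every KO kidney was higher than every control kidney of this cohort. The *Rdh11* log2 fold change was 0.34 (standard error 0.10), a ratio of 1.27, with an adjusted p of 0.21 in edgeR's quasi-likelihood test. Of the 7 injured tubule markers, 6 had a positive log2 fold change in this cohort (up to 0.84 for *Lcn2*, which also lay above every control) and 0 passed the same test, with 4 at an unadjusted p under 0.05. Their part in the *Rdh11* and *Rdh12* values was not tested.

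In the *Myc* cohort, *Rdh11* had 41.7, 42.0, 47.5, 38.2 and 47.4 CPM in the KO kidneys. In the control kidneys it had 53.7, 52.2, 54.0, 63.4 and 54.2 CPM. Every KO kidney was lower than every control kidney, with no overlap. The *Rdh11* log2 fold change was -0.35 (standard error 0.083), a ratio of 0.784, with an adjusted p of 0.057 in edgeR's quasi-likelihood test. DESeq2 gave an adjusted p of 0.0048 for *Rdh11*. Without *Myc* control replicate 3, edgeR's adjusted p was 0.040 (log2 fold change -0.36), in a fit where 877 genes passed. *Rdh11* passed in only 1 of the 10 fits that each left out 1 kidney, with edgeR's adjusted p up to 0.139. Of the injured tubule markers, 4 of 7 had a positive log2 fold change here, from -1.32 for *Havcr1* to 0.43 for *Vcam1*, and 0 passed the test, with 1 at an unadjusted p under 0.05.

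Such opposite separation, KO above every control in the *Cxcl12* cohort and below every control in the *Myc* cohort, was found in 23 of 14727 genes tested in both (0.156%). The difference of the *Rdh11* effects, *Myc* minus *Cxcl12*, was -0.70 on the log2 scale (standard error 0.13, 95% interval -0.97 to -0.43), with an adjusted p of 0.047 in edgeR's quasi-likelihood test over all 18 kidneys. It was 1 of 11 genes of 15903 that passed there (0.0692%), and 1 of 6 that passed below 0 (0.0377%). The *Rdh11* call lay close to the threshold. It was lost when any 1 of 13 kidneys was left out, namely *Cxcl12* KO replicates 2, 3 and 4, *Cxcl12* control replicates 1, 2 and 3, *Myc* KO replicates 1, 2, 3 and 4, and *Myc* control replicates 2, 4 and 5, and it was kept without any 1 of the other 5. Over these 18 fits the difference stayed between -0.75 and -0.64, with adjusted p from 0.025 to 0.145. With limma-voom the adjusted p was 0.053 and with DESeq2 it was 0.00034.

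**Figure D3:**
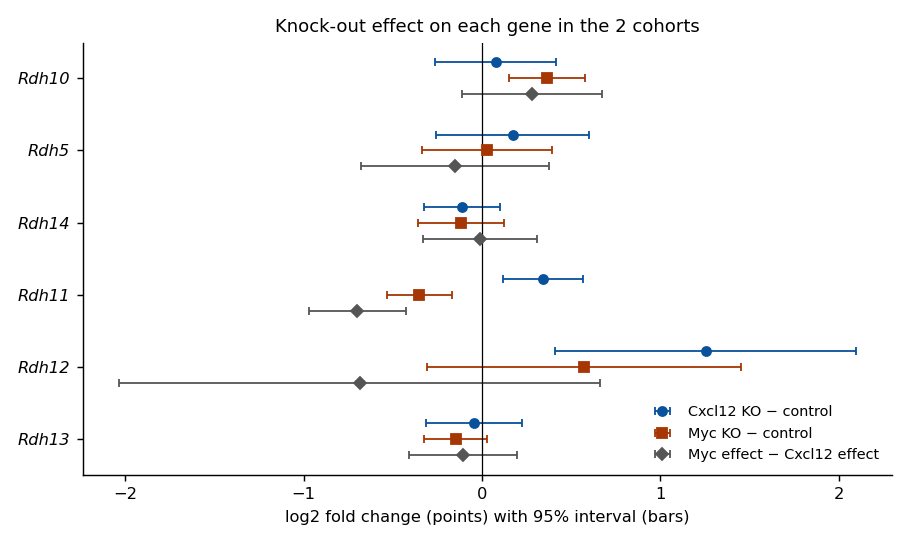
Fitted log2 fold change of each gene (points) with its 95% interval (bars) for *Cxcl12* KO against control, *Myc* KO against control, and the *Myc* effect minus the *Cxcl12* effect. The *Rdh11* intervals lie on opposite sides of 0 in the cohorts (0.12 to 0.57 and -0.53 to -0.17), and the *Rdh12* intervals are the widest.

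The *Rdh11* groups also crossed between the cohorts. *Cxcl12* KO kidneys averaged 54.9 ± 5.68 CPM (SD, n = 5) and *Myc* controls 55.5 ± 4.47 CPM (SD, n = 5), whereas *Cxcl12* controls averaged 43.2 ± 3.25 CPM (SD, n = 3) and *Myc* KO kidneys 43.4 ± 4.01 CPM (SD, n = 5). The high groups were thus the KO of one line and the control of the other. Between the control groups alone, *Rdh11* was 0.36 higher (log2, standard error 0.098) in *Myc* than in *Cxcl12* control kidneys, with an adjusted p of 0.063 in edgeR's quasi-likelihood test and 0.014 in DESeq2. Line, surgery and library handling cannot be told apart between the control groups. Within the mapping groups the *Rdh11* effect of *Myc* was -0.47 in the 6 kidneys with at least 5% unmapped reads and -0.17 in the other 4, and the *Cxcl12* effect was 0.29 in the 6 kidneys with at least 5%. With the mapping group as a term, the *Rdh11* difference between the cohorts was -0.67 (adjusted p = 0.023 in edgeR's quasi-likelihood test).

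*Rdh12*, a retinal reductase known from photoreceptors, was a gene of low counts, with 23 to 273 reads per kidney. In the *Cxcl12* KO kidneys it had 2.07, 2.27, 5.91, 5.27 and 3.47 CPM. In the *Cxcl12* control kidneys it had 1.77, 1.24 and 1.67 CPM. Replicates 3, 4 and 5 of the KO were high, and replicates 1 and 2 lay just above the controls. The *Rdh12* log2 fold change was 1.25 (standard error 0.38), a ratio of 2.38, with an adjusted p of 0.22 in edgeR's quasi-likelihood test and 0.049 in DESeq2. KO replicates 1 and 2 were the kidneys of this cohort with under 5% unmapped reads. With the mapping group as a term the *Rdh12* log2 fold change was 1.63 (adjusted p = 0.027 in edgeR's quasi-likelihood test). No control of this cohort was under 5%, so in this fit the term rested on KO replicates 1 and 2 alone. Within the kidneys with at least 5% unmapped reads the *Rdh12* log2 fold change was also 1.63, with an adjusted p of 0.055 in the same test.

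*Rdh12* in the *Myc* cohort had 4.03, 5.97, 9.69, 9.69 and 8.45 CPM in the KO kidneys. In the control kidneys it had 1.19, 5.83, 9.24, 3.63 and 5.69 CPM. The groups overlapped, with control replicate 3 among the high kidneys and control replicate 1 the lowest of all 18. The *Rdh12* log2 fold change was 0.57, with a standard error of 0.41 and an adjusted p of 0.43 in edgeR's quasi-likelihood test, and it was 0.93 without *Myc* control replicate 3 and 0.30 without *Myc* control replicate 1, which did not change the call. The difference of the *Rdh12* effects between the cohorts was -0.69 (95% interval -2.03 to 0.66, adjusted p = 0.75), and from -0.95 (without *Myc* control replicate 1) to -0.33 (without *Myc* control replicate 3) with 1 kidney left out. Between the control groups, *Rdh12* was 1.72 higher (log2, standard error 0.52) in *Myc* than in *Cxcl12* control kidneys, with an adjusted p of 0.090 in edgeR's quasi-likelihood test and 0.011 in DESeq2.

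*Rdh12* varied among kidneys together with some genes of myeloid cells, and also with some markers of other cell types. Across all 18 kidneys, each centred on its group mean of log2 CPM, the genes most like *Rdh12* among 13718 were *Cd33*, a surface receptor of myeloid cells, with a Pearson correlation of 0.96, and *Clec4d*, a C-type lectin of macrophages and neutrophils, with 0.94. These are descriptions over kidneys that share their libraries and were taken from a ranking, so no p is given. *S100a8*, a calcium-binding protein of neutrophils, correlated with *Rdh12* at 0.89, *Ptprc* at 0.70 and *Itgam* at 0.69, while *Adgre1*, the F4/80 antigen of macrophages, was at 0.038 and *Cd68* at -0.20. Outside the leukocyte markers, *Rdh12* correlated with the endothelial markers *Pecam1*, *Cdh5*, *Emcn* and *Kdr* at 0.79, 0.76, 0.60 and 0.21. Of the stromal markers, *Col3a1* was at 0.64, but *Col1a1*, *Pdgfrb* and *Dcn* were at 0.21, 0.15 and 0.13. Proximal tubule markers ran from -0.63 (*Lrp2*) to 0.38 (*Slc5a12*). Among the injured tubule markers the values were 0.78 for *Vcam1*, 0.67 for *Lcn2*, 0.67 for *Spp1* and 0.66 for *Clu*, but -0.60 for *Sox9*, -0.55 for *Havcr1* and -0.34 for *Krt20*. *S100a8* lay between 6.78 and 32.9 CPM in *Cxcl12* KO kidneys and between 5.33 and 6.22 CPM in their controls. It lay between 33.6 and 69.9 CPM in *Myc* KO kidneys and between 13.3 and 58.8 CPM in their controls.

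**Figure D4:**
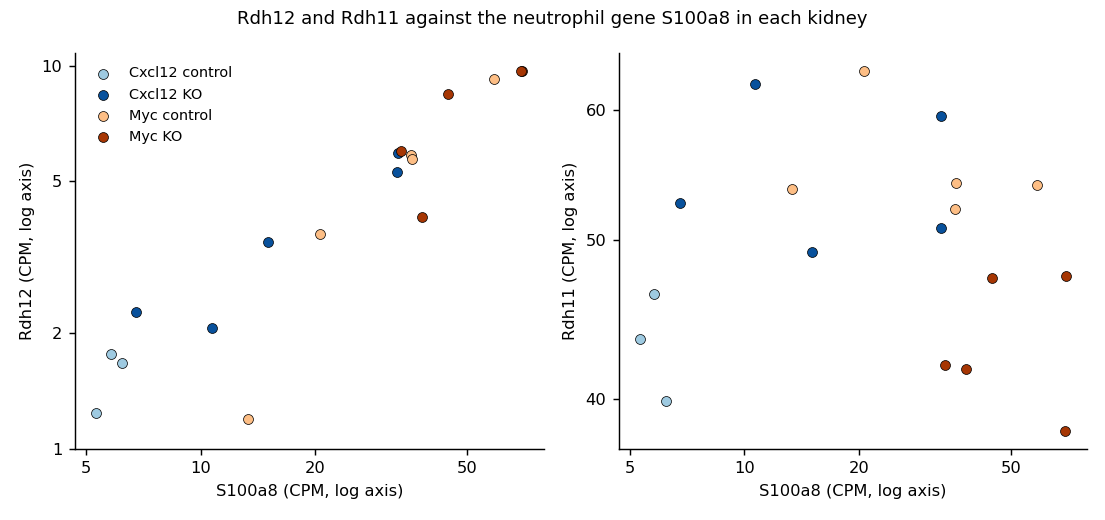
*Rdh12* (left) and *Rdh11* (right) against the neutrophil gene *S100a8*, all in CPM on log axes, 1 point per kidney coloured by group. *Rdh12* is low where *S100a8* is low, as in the *Cxcl12* controls (1.24 to 1.77 and 5.33 to 6.22 CPM), whereas *Rdh11* is as high in *Cxcl12* KO as in *Myc* control kidneys (54.9 and 55.5 CPM on average).

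The summed level of the 6 leukocyte markers (*Ptprc*, *Cd68*, *Adgre1*, *Itgam*, *S100a8*, *Cd3e*) was 52.9 to 99.0 CPM in *Cxcl12* KO kidneys (controls 50.7 to 51.6 CPM) and 112 to 164 CPM in *Myc* KO kidneys (controls 73.3 to 148 CPM). The T cell marker *Cd3e* was near 0, with 1 to 10 reads per kidney. Of the 5 leukocyte markers tested in each cohort, 0 passed edgeR's quasi-likelihood test, and *S100a8* had a log2 fold change of 1.74 for *Cxcl12* and of 0.64 for *Myc*. For *Cxcl12*, *Itgam* and *Ptprc* were at 0.77 and 0.37, but *Cd68* and *Adgre1* at -0.067 and -0.42. For *Myc*, *Itgam*, *Ptprc* and *Cd68* were at 0.41, 0.29 and 0.12. *Adgre1* was at -0.32 there, with every KO kidney below every control, as for 3.92% of all genes. The part of the leukocyte, endothelial, stromal and injured tubule markers in the *Rdh12* values was not tested. For *Rdh11* the correlation with *S100a8* was -0.10. Over the markers of all cell types, *Rdh11* had correlations from -0.59 (*Nphs1*, a podocyte marker) to 0.47 (*Havcr1*, an injured tubule marker). Proximal tubule markers ran from -0.54 (*Slc22a7*) to 0.19 (*Cubn*) with it. The part of these markers in the *Rdh11* values was not tested. The photoreceptor marker *Crx* was at 0 in *Cxcl12* KO, *Cxcl12* control and *Myc* KO kidneys, and the 3 retina markers together reached at most 7.02 CPM.

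*Rdh13* encodes a retinal reductase at the inner membrane of mitochondria. *Cxcl12* KO kidneys had 26.03 to 33.9 CPM of it and their controls 27.2 to 37.8 CPM. *Myc* KO kidneys had 25.8 to 30.4 CPM and their controls 27.4 to 34.3 CPM. The *Rdh13* groups overlapped in both cohorts, and its coefficient of variation over all kidneys, 10.2%, was the lowest of the 6. Its log2 fold change was -0.044 (95% interval -0.31 to 0.23) for *Cxcl12* and -0.15 (95% interval -0.32 to 0.030) for *Myc*, with adjusted p of 0.91 and 0.31 in edgeR's quasi-likelihood test.

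*Rdh14* encodes a further retinal reductase of this subgroup. In the *Cxcl12* KO kidneys it had 26.8, 21.9, 27.3, 27.1 and 27.1 CPM. In the *Cxcl12* control kidneys it had 27.9, 27.6 and 28.6 CPM. Every KO kidney lay below every control kidney, but 4 of the 5 KO kidneys were close to the controls and KO replicate 2 was well below the rest. The *Rdh14* log2 fold change was -0.11 (95% interval -0.33 to 0.098, adjusted p = 0.64 in edgeR's quasi-likelihood test), and it was -0.061 without *Cxcl12* KO replicate 2. In the *Myc* cohort *Rdh14* had 22.3 to 24.6 CPM in KO and 19.4 to 31.5 CPM in control kidneys, which overlapped. The log2 fold change of *Rdh14* there was -0.12 (95% interval -0.36 to 0.13, adjusted p = 0.56 in edgeR's quasi-likelihood test), and it was -0.20 without *Myc* control replicate 3 and -0.028 without *Myc* control replicate 4. The effects of both knock-outs on *Rdh14* differed by -0.0091 (95% interval -0.33 to 0.31).

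The 6 genes did not vary together. Across the 18 kidneys centred on their group means, the 15 pairwise correlations ran from -0.59 (*Rdh5* with *Rdh11*) to 0.59 (*Rdh10* with *Rdh12*), and the neighbours *Rdh11* and *Rdh12* were at -0.071. The genes most like each of the others, by the same measure and with no p, were *Nat8* (0.93) and *Haao* (0.92) for *Rdh5*, *Procr* and *Ssh3* (both 0.84) for *Rdh10*, *Umad1* (0.91) and *Ap3s1* (0.89) for *Rdh11*, *Zfp672* (0.90) and *Cebpa* (0.77) for *Rdh13*, and *Mospd3* (0.91) and *Hint3* (0.90) for *Rdh14*. *Nat8* encodes an acetyltransferase of the proximal tubule and *Haao* an enzyme of NAD synthesis from tryptophan. With the 8 proximal tubule markers, *Rdh5* had correlations from -0.42 (*Slc5a12*) to 0.81 (*Slc34a1*), with *Cubn*, *Lrp2* and *Slc5a2* at -0.044, 0.16 and 0.18 and *Slc7a13*, *Slc22a7* and *Slc22a6* at 0.47, 0.68 and 0.73. Over the markers of all cell types, *Rdh10* had correlations from -0.69 (*Sox9*) to 0.65 (*Itgam*). The part of these markers in the *Rdh10* values was not tested.

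The other genes of retinoid metabolism were read from a list of 40 that covers enzymes before and after retinal, binding proteins and uptake. In the *Cxcl12* cohort 24 of the 40 were tested, 6 with a positive and 18 with a negative log2 fold change, and the median was -0.22. Of all genes there, 7602 were positive and 7552 negative. For *Myc* 25 were tested, 10 with a positive and 15 with a negative log2 fold change, and the median was -0.080. Of all genes there, 7447 were positive and 7489 negative. By edgeR's quasi-likelihood test 0 passed in either cohort. An unadjusted p under 0.05 was found for 4 of the 24 and 3 of the 25, beside 1976 of 15154 and 3268 of 14936 genes. DESeq2 called 2 in the *Cxcl12* cohort (*Dhrs3* and *Bco1*) and 1 in the *Myc* cohort (*Dhrs9*), against 2.34% and 7.63% of all genes.

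**Figure D5:**
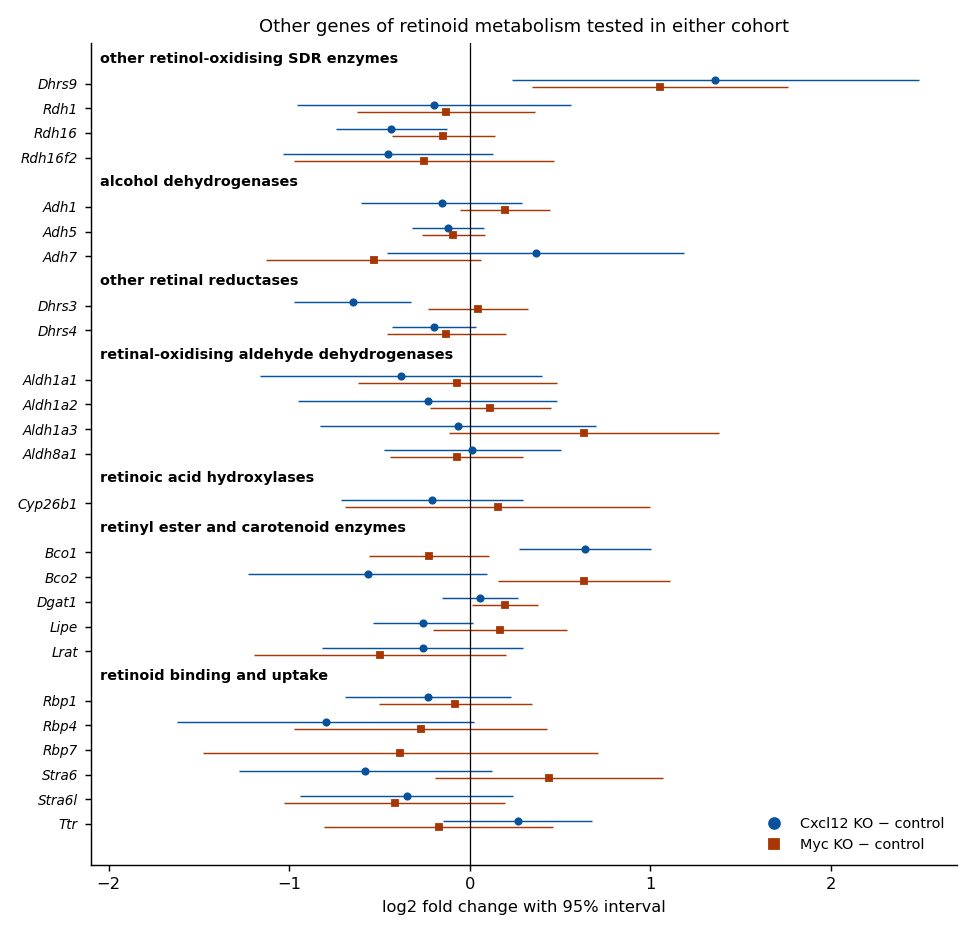
Fitted log2 fold change with its 95% interval for each listed gene of retinoid metabolism tested in either cohort, grouped by role, with *Cxcl12* KO against control as circles and *Myc* KO against control as squares. *Dhrs9* lies furthest to the right in both cohorts (1.36 and 1.05), and *Dhrs3* is below 0 in the *Cxcl12* cohort (-0.65) and near 0 in the *Myc* cohort (0.045).

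Among the other retinol-oxidizing short-chain dehydrogenases, 4 of 11 were tested in each cohort. *Dhrs9*, which oxidizes retinol and some steroids, had log2 fold changes of 1.36 (standard error 0.51, adjusted p = 0.31) and 1.05 (standard error 0.33, adjusted p = 0.11 in edgeR's quasi-likelihood test), at 0.592 ± 0.293 CPM in *Cxcl12* control and 2.28 ± 0.941 CPM in *Myc* control kidneys (SD). *Rdh16f2* was at -0.45 and -0.25, and *Rdh16* at -0.44 and -0.15. *Rdh16* and *Rdh16f2* have closely similar paralogs, and reads that mapped to several of them were not counted. Of the 3 alcohol dehydrogenases tested, which oxidize retinol among other alcohols, *Adh7* was at 0.36 and -0.53, and *Adh1* at -0.16 and 0.19.

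Among the retinal reductases outside the 6 genes, *Dhrs3* encodes a partner of RDH10 that returns retinal to retinol. *Cxcl12* KO kidneys had 51.1 ± 8.97 CPM of it (SD, n = 5) and their controls 79.8 ± 14.5 CPM (SD, n = 3), without overlap. The difference was -0.65 on the log2 scale (standard error 0.15, adjusted p = 0.11 in edgeR's quasi-likelihood test and 0.0063 in DESeq2). For *Myc*, *Dhrs3* was at 0.045, and the difference of the effects was 0.69 (adjusted p = 0.17 in edgeR's quasi-likelihood test). *Dhrs4* was at -0.20 and -0.13. Of the 4 aldehyde dehydrogenases that make retinoic acid, *Aldh1a1* (-0.38) and *Aldh1a2* (-0.23) had the largest values in the *Cxcl12* cohort and *Aldh1a3* (0.63) and *Aldh1a2* (0.11) in the *Myc* cohort. The retinoic acid hydroxylase *Cyp26b1* was at -0.21 and 0.15.

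Among the enzymes of retinyl esters and carotenoids, *Bco1*, which cleaves beta-carotene into retinal, was at 0.64 (standard error 0.17, adjusted p = 0.16) for *Cxcl12* and -0.23 for *Myc*, and *Bco2*, which cleaves carotenoids off centre, was at -0.56 and 0.63 (adjusted p = 0.13 in edgeR's quasi-likelihood test). The retinol esterifying enzyme *Lrat* was at -0.50 in the *Myc* cohort. Among the binding and uptake genes, the largest values were *Rbp4* (-0.80) and *Stra6* (-0.58) in the *Cxcl12* cohort and *Stra6* (0.44) and *Stra6l* (-0.41) in the *Myc* cohort.

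Between the control groups 316 of 15903 genes passed edgeR's quasi-likelihood test (1.99%). None of the 6 retinol dehydrogenase genes was among them. Of the 6, 2 had an unadjusted p under 0.05, as did 2815 of all genes. DESeq2 called 2, *Rdh11* and *Rdh12*, among 794 genes in all. On the list of 40, 26 were tested and 3 passed. *Bco1* was 0.83 higher (adjusted p = 0.027), *Dhrs3* was at -0.80 (adjusted p = 0.014) and *Stra6*, the cell surface receptor for the retinol binding protein, at -1.41 (adjusted p = 0.038) in *Myc* against *Cxcl12* control kidneys. For the difference of the KO effects 0 of the 26 passed, where *Rdh11* had passed. Of the 26, 4 had an unadjusted p under 0.05 there, as did 1812 of all 15903 genes. DESeq2 called *Bco1* there, among 314 genes in all. The contrast of the controls and the difference of the KO effects use the same control kidneys and are not independent.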

How the data were processed

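RNA of 18 whole kidneys was sequenced. The authors trimmed the reads with Trimmomatic 0.32, aligned them to GRCm38 and counted them with STAR 2.4.0, and deposited raw read counts per gene without normalization. The count column that ignores strand was used for 45706 genes. Columns 3 and 4, read per strand, held 47.1% to 52.9% of the reads of each of the 6 genes and were alternatives, so antisense reads could not be separated. Over all genes, 2.26% to 2.52% of the reads of a kidney were ambiguous and 16.6% to 18.6% mapped to several places, and neither was counted on a gene. The study corrected for batches with ComBat, but no batch is named in the sources used here.

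In R 4.3.3, edgeR 4.0.16 removed genes with low counts (filterByExpr), computed TMM factors and ran its quasi-likelihood test in each cohort. P-values were adjusted over all genes after Benjamini and Hochberg, with a threshold of 0.05. Differences of the KO effects and between the controls came from 1 fit to all 18 kidneys. The standard error was the log2 fold change divided by the square root of F. CPM used TMM scaling over all 18 kidneys. FPKM used the exon length of GENCODE vM21, in which 45143 IDs were found. Correlations used log2 CPM with a prior count of 2, for genes with a mean of at least 1 CPM. The alternatives were DESeq2 1.42.0, limma-voom (limma 3.58.1), RLE size factors, no filter, other columns, 1 fit for all kidneys, the mapping group as a term, a replicate block and leaving out each kidney. The fits were tested on simulated data. Coding sequences were aligned with MAFFT 7.526. Figures used matplotlib 3.10.9 and tables pandas 2.3.3 in Python 3.11.15. Exact permutation p-values for the 6 genes are not reported, because the genes were chosen with their KO effects known. All 33 pairs of kidneys within a group differed by more than sampling noise (chi-square per degree of freedom 5.77 to 69.1).

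The 6 genes, the list of 40 and the markers were chosen with earlier results of these data known. Named were the 6 genes, the targets, listed genes past the threshold, the 2 with the largest absolute log2 fold change per list and cohort, and the 2 genes most like each of the 6. Other listed genes and single markers were named after their values were seen. P-values measure the spread between these kidneys, which the labels do not describe as separate animals.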

Additional observations from a re-analysis of the deposited data

Results flagged for a closer look

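*Rdh11* in *Myc* control replicate 4 was 63.37 CPM, while the other 4 *Myc* control kidneys lay between 52.2 and 54.2 CPM, and it was set apart by the size of its gap to the nearest kidney. *Rdh14* in *Cxcl12* KO replicate 2 was 21.86 CPM, and was set apart in the same way from the other 4 kidneys of the group at 26.8 to 27.3 CPM. Of the 18 groups checked in this way, chance alone sets about 5% apart.

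The effect of the *Myc* knock-out on *Rdh11* minus that of the *Cxcl12* knock-out was -0.6991 on the log2 scale (adjusted p = 0.047 in edgeR's quasi-likelihood test over all 18 kidneys). All 5 KO kidneys lay below their controls in the *Myc* cohort and all 5 above them in the *Cxcl12* cohort.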

How the results depend on the processing

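The 6 genes were measured deeply enough for counting error to be small except for *Rdh5* and *Rdh12* (58 to 131 and 23 to 273 reads per kidney), and a control group of 3 limits the *Cxcl12* cohort. Only whole kidneys at 1 time after injury were sequenced. The cause of a moved value was not tested except where fewer kidneys or genes entered. No result for *Rdh11* changed its direction under any alternative.

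Whether the replicate numbers pair the kidneys could not be decided from so few pairs. For *Cxcl12*, 3 KO and control pairs with equal numbers had correlations of -0.0345 to 0.142 (mean 0.0682). The 12 with different numbers had -0.156 to 0.212 (mean -0.017). For *Myc*, 5 pairs with equal numbers had -0.155 to 0.379 (mean 0.0556), and 20 with different numbers had -0.533 to 0.456 (mean -0.0119). With a replicate block the *Rdh11* difference between the cohorts was -0.7068 (adjusted p = 0.199), that of *Rdh14* turned to 0.05132, 0 of the 6 genes and 1 gene in all passed for the difference, and 18 genes passed for *Myc* against 246.

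The *Rdh11* difference also missed the threshold with no filter (-0.7113, adjusted p = 0.0627), limma-voom (-0.6939, 0.0534), column 3 (-0.7241, 0.0641) and column 4 (-0.6647, 0.0623), where 0 of the 6 genes passed. DESeq2 called *Rdh12* for *Cxcl12* (1.265), *Rdh10* (0.3635) and *Rdh11* (-0.3508) for *Myc*, and *Rdh11* (0.3675) and *Rdh12* (1.723) between the controls, which are 1, 2 and 2 of the 6. The mapping group as a term called *Rdh12* (1.634) for *Cxcl12* and *Rdh11* (-0.3549) for *Myc*, 1 each, and 1 fit to all kidneys called *Rdh11* (-0.3539) for *Myc*.

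Directions turned for *Rdh13* in column 3 (0.003905, *Cxcl12*) and column 4 (0.01564, difference), for *Rdh5* (*Myc*) in limma-voom (-0.006215), column 4 (-0.1182) and the 4 kidneys with under 5% unmapped reads (-0.1333), for *Rdh14* in those 4 (0.02813, *Myc*) and, for the difference, in limma-voom (0.03138) and column 4 (0.03608), and for *Rdh5* between the controls with the mapping term (0.04287).

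Counts over all genes depended on the setting. For *Cxcl12*, where 0 genes passed, 214 passed with no filter, 355 with DESeq2, 9 in column 3, 25 in 1 fit to all kidneys, 123 with the mapping term and 80 within the kidneys with at least 5% unmapped reads. For *Myc*, where 246 passed, 1139 passed with DESeq2, 683 in 1 fit, 954 with the mapping term, 8 within the kidneys with at least 5% unmapped reads and 0 within the other 4. For the difference, where 11 passed, 314 passed with DESeq2, 133 with the mapping term, 3 with limma-voom, 4 in column 3 and 7 in column 4. Between the controls DESeq2 called 794 against 316. Of the list of 40, 1 passed with no filter (*Cxcl12*), 2 (*Cxcl12*), 1 (*Myc*) and 1 (difference) with DESeq2, and 1 (*Myc*) with the mapping term.

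Leaving out each kidney gave ranges of -0.03804 to 0.176 for *Rdh10*, -0.01589 to 0.3829 for *Rdh5* and -0.1413 to 0.1097 for *Rdh13* (*Cxcl12*), of 0.312 to 0.4196 for *Rdh10*, -0.05156 to 0.146 for *Rdh5*, -0.2027 to -0.0275 for *Rdh14* and -0.3873 to -0.3006 for *Rdh11* (*Myc*), and of -0.3667 to 0.04239 for *Rdh5*, -0.09331 to 0.08879 for *Rdh14*, -0.9472 to -0.3304 for *Rdh12* and -0.7468 to -0.6404 for *Rdh11* (difference). Between the controls they were -0.05079 to 0.1292 for *Rdh10*, -0.2566 to 0.1475 for *Rdh5*, 1.362 to 1.981 for *Rdh12* and -0.07136 to 0.1841 for *Rdh13*. The number of the 6 genes that passed ranged from 0 to 2 (*Myc*), 0 to 1 (difference) and 0 to 1 (controls), and that of the list of 40 from 0 to 1 (*Myc*) and 0 to 5 (controls). Over all genes it ranged from 0 to 15 (*Cxcl12*), 21 to 877 (*Myc*, without KO replicate 2 and without control replicate 3), 1 to 75 (difference) and 49 to 611 (controls).

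Mean levels in column 3 and column 4 were about those of 1 strand, with 18.27 and 19.39 FPKM for *Rdh10*, 8.345 and 8.823 for *Rdh14*, 7.156 and 7.291 for *Rdh11*, 2.315 and 2.32 for *Rdh13* and 0.7634 and 0.8435 for *Rdh5*. With the longest transcript *Rdh13* had 9.932 and *Rdh5* 3.396 FPKM.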
